A study of Rattus norvegicus with 6 samples.

Results

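Solute carriers are membrane proteins that move sugars, amino acids, ions, metals, vitamins and metabolites across cell and organelle membranes. The genes described here are rat genes whose symbol starts with Slc and a digit and whose probe read above background on 3 or more of 6 arrays. The Slc27 family and Slc20a1, Slc20a2, Slc13a5, Slc7a3, Slc7a5, Slc7a11, Slc3a2, Slc16a3, Slc2a1 and Slc40a1 were left out. The rule gave 131 genes, measured by 165 probes, among 21847 genes and unnamed probes tested. Of 203 solute carrier genes with a probe after these exclusions, 72 were too dim to be kept. The 131 genes were grouped by the substrate of their Slc family.

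The samples were bone marrow cells from male rats, 8 weeks old, kept in culture under osteogenic conditions and harvested on day 10. Of 6 samples, 3 were controls and 3 were exposed to low-intensity pulsed ultrasound (LIPUS), which delivers mechanical energy as short bursts of sound. Total RNA was labelled with Cy3 and hybridised to 1 Agilent array per sample. The ultrasound settings are not given in the labels, and neither is whether replicates came from separate animals or cultures, so p-values measure only the spread between these samples. Bone marrow cultures are mixtures, and in such RNA fewer cells of a type cannot be told apart from less RNA per cell.

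Most solute carriers fall into a few working types. Uniporters let a solute run down its gradient, symporters pull a solute in with sodium or protons, and exchangers swap one solute for another. Sodium-driven carriers depend on the sodium pump, an ATPase that exports sodium and imports potassium. In bone marrow, osteoblasts use carriers for the amino acids, glucose and ions of matrix formation, and macrophages use others to strip metals and nutrients from phagosomes and lysosomes.

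Values are log2 brightness minus the 75th percentile of the same array, so 0 is the level of a fairly bright probe, and a difference of 1 is a 2-fold change. Levels were compared between arrays for 1 probe and never between probes. Probes above background made up 53.5% to 61.9% of all probes per array, and arrays correlated at 0.964 to 0.986 across features, which are not independent replicates. The scan positions and the tilt of the spot grid put control 1 and control 2 on one slide and control 3 with the 3 LIPUS arrays on another. Differences between LIPUS and control 3 alone, within that slide, are therefore given beside each carrier call. A gene was called at an adjusted p under 0.05 in limma, a linear model fitted to all features with Benjamini-Hochberg adjustment.

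Most solute carrier genes were not called between LIPUS and control. Of 131 genes, 5 were called higher, 14 were called lower and 112 did not pass. The lower calls include Slc15a2, which entered the list through its control arrays alone. The called share was 14.5%, against a background of 6.63% of all features and 8.69% of features with a symbol. Genes called higher made up 3.82% of the carriers, against 2.89% of all features and 3.39% of those with a symbol. Genes called lower made up 10.7%, against 3.74% and 5.30%. The median log2 change was 0.02 over the carriers and 0.03 over all features. Changes ran from a fall of the amino acid exchanger gene Slc7a8 (−1.87) to a rise of the potassium-chloride cotransporter gene Slc12a4 (1.15). The control and LIPUS values did not overlap for 50 of the 131 genes (38.2%), against 27.2% of all features. At an unadjusted p under 0.05 in limma there were 39 of the 131 carriers and 4827 of the 21847 features. The calls fell in 6 of the 10 substrate groups, and none of the acid-base, mitochondrial, nucleotide sugar or neurotransmitter and organic ion groups passed. In groups of 6 to 23 genes, having no call is near the 6.63% called over all features.

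**Figure D1:**
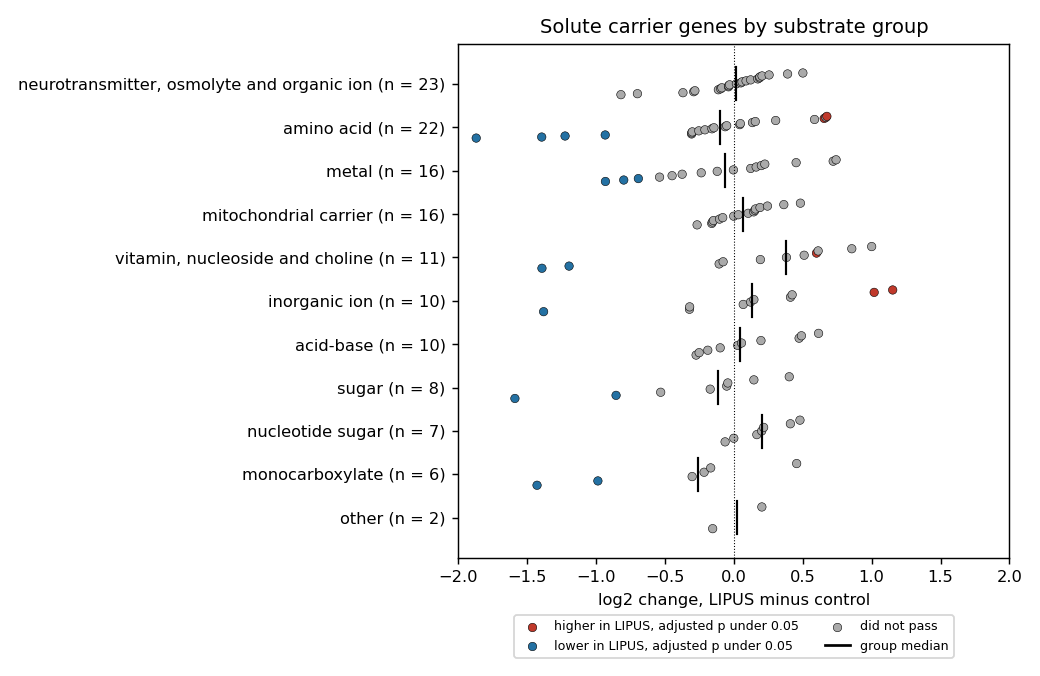
Log2 change, LIPUS minus control, of each of the 131 solute carrier genes, by substrate group (rows, with the number of genes). Points are genes, coloured by their call in limma, and black bars are group medians. The lower calls reach −1.87, and the medians lie between −0.26 and 0.38.

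The scaling between arrays moved the balance of calls. Higher genes made up 26.3% of the carrier calls on the scale used here, 11.8% with each array centred on its median and 7.41% with arrays scaled to 5 spike-in probes. Spike-in scaling shifted the median change of all features by −0.35, to −0.32, and the carrier median to −0.33. It gave 2 higher and 25 lower carrier calls. The 19 called genes kept their direction under both, and Slc36a2, Slc38a2 and Slc44a1 lost their calls under both. Rises smaller than the spike-in shift lie below 0 on the spike-in scale. So do the group medians above 0, other than that of the vitamin, nucleoside and choline carriers.

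Within the slide that holds both groups the 19 called genes had the same direction, as they must where the groups do not overlap. The differences from control 3 alone ran from −1.65 to −0.68 for the lower genes and from 0.57 to 1.08 for the higher ones. With slide as a fixed block, which leaves control 3 as the only control that informs the change, 1.29% of all features and 2 of the 131 carriers were called. Those 2 were Slc12a4 (adjusted p = 0.0449) and the fructose carrier gene Slc2a5 (adjusted p = 0.0497). With slide as a random block, 4.64% of all features and 15 carriers were called, 3 higher and 12 lower, and all 15 were among the 19. In limma without any 1 array, 8 of the 19 remained called each time: Slc12a4, Slc13a3, Slc15a2, Slc16a7, Slc1a3, Slc28a2, Slc2a5 and Slc7a8. Among them, Slc15a2 had entered the list through its control arrays alone. Without control 3 there were 9 higher and 12 lower calls, but group and slide then coincide and cannot be told apart. This omission, and that of no other array, added 7 genes to the calls. Slc10a7, Slc14a1, Slc29a2, Slc30a4, Slc38a1 and Slc39a7 were higher and Slc37a4 was lower (limma adjusted p from 0.00891 for Slc29a2 to 0.0452 for Slc38a1). Against control 3 alone, Slc10a7 changed by 0.04, Slc14a1 by −0.64, Slc29a2 by 0.27 and Slc30a4 by 0.18. On the same comparison Slc38a1 changed by 0.34, Slc39a7 by 0.49 and Slc37a4 by −0.29. Without any other 1 array there were 1 or 2 higher calls, and 8 without control 1, 9 without LIPUS 1 or LIPUS 2 and 10 without control 2 or LIPUS 3 that were lower.

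**Figure D2:**
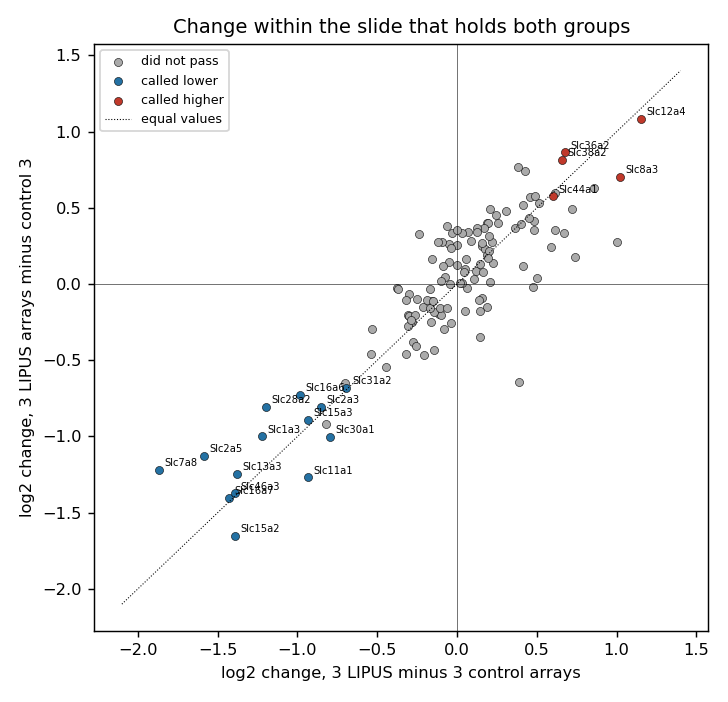
Change of each solute carrier gene in all 6 arrays (horizontal axis, log2) against its change from control 3 alone (vertical axis, log2), the control array on the slide of the LIPUS arrays. Slc7a8 moved from −1.87 to −1.22 and Slc11a1 from −0.93 to −1.27. The 19 called genes keep their side of 0.

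**Figure D3:**
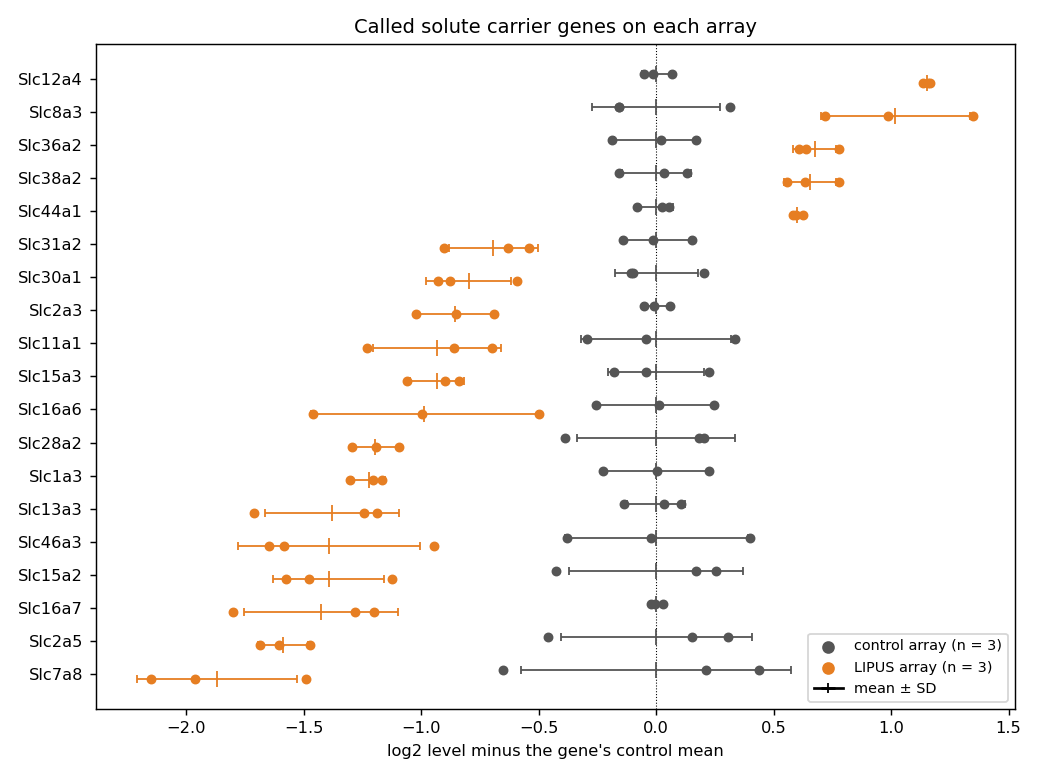
Log2 level of the 19 called solute carrier genes on each array, minus the gene's control mean. Points are arrays, grey for control and orange for LIPUS, and bars give the mean ± SD (n = 3 each). The groups do not overlap for any of the 19 genes, which were chosen by their call.

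Amino acid and peptide carriers held 4 genes called lower and 2 called higher of 22, with 16 not passed and a median change of −0.10. Over all features, 3.74% were called lower and 2.89% higher. On the scale used here, the largest fall was in Slc7a8 (NM_053442), which encodes a light chain of a neutral amino acid exchanger. Its log2 level was 1.46, 1.24 and 0.37 in control and −0.94, −0.47 and −1.13 with LIPUS. Every LIPUS array was below every control array, and control 3 was the lowest of the controls. The change was −1.87 ± 0.29 (SE, adjusted p = 0.00539), and −1.22 against control 3 alone. The other measured amino acid carriers of family 7, Slc7a7, Slc7a2, Slc7a3l1 and Slc7a10, lay between −0.25 and 0.04 and did not pass. Slc7a3l1 resembles the excluded Slc7a3 by name and its probe may also bind RNA of that relative.

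Of 3 measured peptide carrier genes of family 15, 2 were called lower. Slc15a2 (NM_031672), a proton-driven importer of small peptides, read −0.68, −1.28 and −0.60 in control and −1.98, −2.33 and −2.43 with LIPUS. It was above the background limit on all 3 control arrays and on no LIPUS array, so it was kept through the control arrays alone. Its fall is a bound: the LIPUS mean was at least 2.28-fold below the control mean on these arrays, with no error attached. The fitted change was −1.39 ± 0.22 (SE, adjusted p = 0.00594), and −1.65 against control 3. Slc15a3 (NM_139341), a lysosomal carrier of peptides and histidine, read 0.41, 0.01 and 0.15 in control and −0.71, −0.65 and −0.87 with LIPUS. Its change was −0.93 ± 0.17 (SE, adjusted p = 0.0121), and −0.89 against control 3. The call of Slc15a3 ended without control 1 or LIPUS 3 (highest adjusted p = 0.0567). Slc15a4, a related lysosomal carrier, lay at −0.31 ± 0.17 (SE, adjusted p = 0.325).

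Slc1a3 (NM_019225), which encodes a sodium-driven glutamate importer, read 4.83, 4.61 and 4.38 in control and 3.44, 3.31 and 3.4 with LIPUS. The LIPUS arrays lay close together and below all controls. The change was −1.22 ± 0.17 (SE, adjusted p = 0.00346), and −1.0 against control 3, and its other kept probe also fell by 0.92. The family members Slc1a2, Slc1a4 and Slc1a5 lay between −0.16 and 0.16 and did not pass.

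Both amino acid carrier genes called higher rose by less than 1 on the log2 scale. Slc38a2 (NM_181090) encodes a sodium-driven importer of small neutral amino acids that cells raise when amino acids run short. It read 3.7, 3.79 and 3.5 in control and 4.22, 4.3 and 4.44 with LIPUS, a change of 0.66 ± 0.16 (SE, adjusted p = 0.0429), and 0.82 against control 3. Its other kept probe rose by 1.13 (limma adjusted p = 0.00310 with every kept probe tested). On the probe reported, the call ended without any 1 of the 6 arrays (highest adjusted p = 0.144). Slc36a2 (NM_139339), a proton-driven carrier of glycine, alanine and proline, read 1.84, 1.99 and 1.63 in control and 2.43, 2.46 and 2.6 with LIPUS. The change was 0.68 ± 0.17 (SE, adjusted p = 0.0411), and 0.86 against control 3, and the call likewise ended without any 1 array (highest adjusted p = 0.136).

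Slc38a2 lies between Slc38a1 and Slc38a4 in the RefSeq gene order. Slc38a1 changed by 0.67 ± 0.21 (SE, adjusted p = 0.0982) and Slc38a4 by 0.30 ± 0.16 (SE, adjusted p = 0.314), and neither passed. Slc38a1 read −2.92, −2.35 and −2.14 in control and −1.82, −1.86 and −1.72 with LIPUS, and was above background on only 1 control array. Slc38a3, a glutamine carrier, was also above background on 1 control array and lay at 0.59 ± 0.22 (SE, adjusted p = 0.149). Slc36a2 neighbours Slc36a1, which lay at 0.14 and did not pass. The remaining genes placed in this group by family number, Slc38a6 (−0.31), Slc38a7 (−0.06), Slc38a9 (0.05) and Slc66a3 (−0.30), did not pass either.

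Sugar carriers held 2 genes called lower of 8, with none higher, 6 not passed and a median of −0.11. Over all features, 3.74% were called lower. Slc2a5 (NM_031741), the fructose uniporter, read 2.6, 2.45 and 1.84 in control and 0.69, 0.61 and 0.82 with LIPUS. The LIPUS arrays spanned a narrow range, and control 3 lay nearest to them. The change was −1.59 ± 0.21 (SE, adjusted p = 0.00297), a 3.01-fold fall, and −1.13 against control 3. Slc2a3 (NM_017102), a high-affinity glucose uniporter, read −0.89, −0.83 and −0.94 in control and −1.91, −1.74 and −1.58 with LIPUS. Its change was −0.85 ± 0.16 (SE, adjusted p = 0.0137), and −0.80 against control 3. The call of Slc2a3 ended without control 1, control 2, LIPUS 1 or LIPUS 2 (highest adjusted p = 0.0649).

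The insulin-responsive glucose carrier gene Slc2a4 (−0.05) and the intracellular carrier gene Slc2a8 (0.15) did not pass. Slc37a4, which brings glucose 6-phosphate into the endoplasmic reticulum, lay at −0.53 ± 0.17 (SE, adjusted p = 0.107). Slc5a3, the myo-inositol carrier used in osmotic stress, lay at 0.40 ± 0.18 (SE, adjusted p = 0.231). Slc5a2 (−0.04) and Slc5a6 (−0.17), a vitamin carrier placed here by its family number, did not pass.

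Monocarboxylate carriers are here the measured genes of family 16, placed by family number, and only some of them move lactate, pyruvate or ketone bodies. The group held 2 genes called lower of 6, none higher and 4 not passed, with a median of −0.26. Over all features, 3.74% were called lower. Slc16a7 (NM_017302), a high-affinity carrier of pyruvate and lactate, read 0.22, 0.18 and 0.16 in control and −1.01, −1.09 and −1.62 with LIPUS. The control arrays were nearly equal and all LIPUS arrays were lower. The change was −1.43 ± 0.19 (SE, adjusted p = 0.00289), and −1.4 against control 3. Slc16a6 (NM_198760) read −0.55, −0.31 and −0.82 in control and −2.02, −1.56 and −1.06 with LIPUS, and LIPUS 3 lay close to the controls. It was above background on 2 of 3 LIPUS arrays. Its change was −0.99 ± 0.25 (SE, adjusted p = 0.0464), and −0.73 against control 3. Its other kept probe read −0.21 and did not pass, and its call ended without any 1 of the 3 control arrays, LIPUS 1 or LIPUS 2 (highest adjusted p = 0.145).

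The main lactate carrier gene Slc16a1 lay at −0.17 ± 0.17 (SE, adjusted p = 0.615). Slc16a10 (−0.22), Slc16a13 (−0.30) and Slc16a4 (0.46) did not pass. Bsg, the chaperone that brings several of these carriers to the cell surface, was at the scanner limit on 2 arrays, so that its reading of 0.56 ± 0.15 (SE, adjusted p = 0.0642) may be clipped. Its relative Emb lay at −0.50 ± 0.19 (SE, adjusted p = 0.157).

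Carriers of chloride, calcium and dicarboxylates held 2 genes called higher and 1 called lower of 10, with 7 not passed and a median of 0.13. Over all features, 2.89% were called higher and 3.74% lower. Slc12a4 (NM_019229), a potassium-chloride cotransporter that lets swollen cells lose salt and water, read 3.49, 3.53 and 3.61 in control and 4.7, 4.71 and 4.68 with LIPUS. The LIPUS arrays lay close together and above all controls. The change was 1.15 ± 0.15 (SE, adjusted p = 0.00246), a 2.22-fold rise, and 1.08 against control 3. Slc8a3 (NM_078620), a sodium-calcium exchanger, read −1.18, −1.19 and −0.71 in control and −0.31, 0.32 and −0.04 with LIPUS. Its change was 1.02 ± 0.21 (SE, adjusted p = 0.0224), and 0.70 against control 3, since control 3 was the highest control. The call of Slc8a3 ended without control 1, control 2, LIPUS 2 or LIPUS 3 (highest adjusted p = 0.0916).

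Slc13a3 (NM_022866), a sodium-driven importer of succinate and related dicarboxylates, read 3.55, 3.62 and 3.38 in control and 2.33, 1.81 and 2.27 with LIPUS. All LIPUS arrays lay below the controls, LIPUS 2 lowest. The change was −1.38 ± 0.19 (SE, adjusted p = 0.00298), and −1.25 against control 3. Its relative Slc13a2 (0.12) did not pass. Among other chloride carriers, Slc12a2, the sodium-potassium-chloride importer, lay at 0.41 ± 0.20 (SE, adjusted p = 0.275). Its other kept probe rose by 0.83 (limma adjusted p = 0.0171 with every kept probe tested). Slc12a8 was above background on 1 control array and lay at 0.42 ± 0.18 (SE, adjusted p = 0.21), and Slc12a5 (0.07) and Slc12a9 (0.15) did not pass. The sodium-calcium exchanger gene Slc8a1 (−0.32) and the mitochondrial exchanger gene Slc8b1 (−0.32) lay below 0 and did not pass. The other probe of Slc8a1 read 0.17.

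The upstream sequences of Slc12a4 and Slc2a5 are shown because only these 2 of the carriers were called when slide was a fixed block. Each is the 250 bases before the RefSeq start in build GRCr8, at chr19:50770123-50770372, minus strand, and chr5:165865929-165866178, plus strand. Capitals mark GAGGAAG, a PU.1-type ETS motif.
Slc12a4: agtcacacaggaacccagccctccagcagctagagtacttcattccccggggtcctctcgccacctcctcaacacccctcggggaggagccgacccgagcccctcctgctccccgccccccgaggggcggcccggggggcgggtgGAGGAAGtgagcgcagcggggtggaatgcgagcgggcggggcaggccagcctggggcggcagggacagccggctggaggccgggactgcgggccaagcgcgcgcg
Slc2a5: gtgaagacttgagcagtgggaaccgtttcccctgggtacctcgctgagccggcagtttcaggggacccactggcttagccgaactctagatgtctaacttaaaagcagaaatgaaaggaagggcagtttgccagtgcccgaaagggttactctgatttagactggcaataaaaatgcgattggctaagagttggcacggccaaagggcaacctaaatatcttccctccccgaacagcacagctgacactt
Slc12a4 has the ETS letters 105 bases before the start. It also has 5 GC boxes (GGGCGG, left in lower case), where 30.5% of 33469 promoters have at least 1. The window of Slc2a5 holds none of the 8 motifs searched.

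Metal carriers held 3 genes called lower of 16, none higher and 13 not passed, with a median of −0.06. Over all features, 3.74% were called lower. Slc11a1 (NM_001031658) encodes a macrophage carrier that pumps iron and manganese out of phagosomes. It read 2.2, 1.95 and 2.58 in control and 1.54, 1.38 and 1.01 with LIPUS. The control arrays were spread, with control 3 highest, and all LIPUS arrays lay below them. The change was −0.93 ± 0.21 (SE, adjusted p = 0.0322), and −1.27 against control 3. The call of Slc11a1 ended without control 1, control 3 or any 1 LIPUS array (highest adjusted p = 0.112). Its widely expressed relative Slc11a2, which brings iron into the cytosol, lay at −0.54 ± 0.17 (SE, adjusted p = 0.0939).

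Slc30a1 (NM_022853), the zinc exporter of the plasma membrane, read −0.58, −0.59 and −0.28 in control and −1.36, −1.08 and −1.41 with LIPUS. Its change was −0.80 ± 0.17 (SE, adjusted p = 0.0261), and −1.0 against control 3. The call of Slc30a1 ended without control 1, control 2, LIPUS 1 or LIPUS 3 (highest adjusted p = 0.0987). Slc31a2 (NM_001033693), a copper carrier of intracellular membranes, read −0.23, 0.06 and −0.10 in control and −0.72, −0.63 and −0.99 with LIPUS. Its change was −0.69 ± 0.17 (SE, adjusted p = 0.0432), and −0.68 against control 3, and the call ended without any 1 array (highest adjusted p = 0.149). The copper importer gene Slc31a1 (−0.37) did not pass.

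Other zinc carriers did not pass. Slc39a7, which releases zinc from the endoplasmic reticulum and Golgi, read 1.83, 2.05 and 2.28 in control and 2.92, 2.9 and 2.5 with LIPUS, a change of 0.72 ± 0.19 (SE, adjusted p = 0.0544). Slc30a4 changed by 0.74 ± 0.25 (SE, adjusted p = 0.12), but by 0.18 against control 3, which lay within the range of the LIPUS arrays. Slc30a2 (−0.12), Slc30a3 (−0.45), the zinc importers Slc39a3, Slc39a4, Slc39a6, Slc39a8, Slc39a9 and Slc39a11, which lay between −0.24 and 0.45, and the magnesium carrier gene Slc41a3 (0.20) make up the rest.

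The upstream sequences of Slc30a1, a gene that zinc is known to induce through metal response elements, and of Slc13a3 are shown for their motifs. They lie at chr13:106021769-106022018, plus strand, and chr3:174623894-174624143, minus strand, in GRCr8. Capitals mark TGCNCNCGG, a metal response element read here on the opposite strand, in Slc30a1 and CACGTG, an E-box, in Slc13a3.
Slc30a1: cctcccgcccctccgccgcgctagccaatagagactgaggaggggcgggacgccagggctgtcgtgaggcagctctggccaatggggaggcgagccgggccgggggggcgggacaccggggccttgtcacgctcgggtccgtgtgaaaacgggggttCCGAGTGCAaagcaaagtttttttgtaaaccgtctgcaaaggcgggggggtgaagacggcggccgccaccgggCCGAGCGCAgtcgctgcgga
Slc13a3: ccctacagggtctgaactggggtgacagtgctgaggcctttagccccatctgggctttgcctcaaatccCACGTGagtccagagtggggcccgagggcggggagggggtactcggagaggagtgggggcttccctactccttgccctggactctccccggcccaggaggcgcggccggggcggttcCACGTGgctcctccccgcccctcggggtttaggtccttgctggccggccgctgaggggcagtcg
Slc30a1 has the metal response letters 93 and 20 bases before the start, and 3.07% of all promoters have at least 1 such match. Slc13a3 has E-boxes 181 and 64 bases before the start, where 5.59% of all promoters have at least 1.

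Of the 131 genes, 109 matched a RefSeq promoter in GRCr8, among them 15 of the 19 called genes. Slc11a1, Slc15a3, Slc16a6 and Slc2a3 had no entry. Motifs were searched as letters on both strands in the 250 bases before the start: the AP-1 site TGANTCA, the cyclic AMP element TGACGTCA, the E-box CACGTG, the ETS motif GAGGAAG, the metal response element TGCNCNCGG, the TATA box TATAAA, the GC box GGGCGG and the amino acid response element TGATGNAA. No motif in the list contains another. The CACGTG E-box was in 18 of 109 carrier promoters (16.5%) and in 5.59% of all promoters, and the GC box was in 60 (55.0%) and in 30.5%. TATAAA was in 5 (4.59%) and in 12.9% of all. Among the 10 promoters of genes called lower, 2 had CACGTG, 1 had GAGGAAG and none had TGANTCA. Among the 5 of genes called higher, 2 had GAGGAAG and 4 had GGGCGG. The carriers were named genes with an mRNA probe that had passed the background filter. The set of all promoters was chosen by neither gene type nor signal, so these shares compare unlike sets. How much of the difference comes from that was not tested. These are matches of letters, with no binding measured.

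Carriers of vitamins, nucleosides and choline held 2 genes called lower and 1 called higher of 11, with 8 not passed and a median of 0.38. Over all features, 3.74% were called lower and 2.89% higher. Slc28a2 (NM_031664), a sodium-driven importer of purine nucleosides, read 4.05, 4.07 and 3.48 in control and 2.67, 2.57 and 2.77 with LIPUS. Control 3 was the lowest control and still above all LIPUS arrays. The change was −1.2 ± 0.20 (SE, adjusted p = 0.00734), and −0.81 against control 3. Slc46a3 (NM_001024968), a lysosomal carrier, read 0.01, −0.77 and −0.41 in control and −1.34, −2.04 and −1.98 with LIPUS, and was above background on 2 of 3 LIPUS arrays. Its change was −1.39 ± 0.25 (SE, adjusted p = 0.0113), and −1.37 against control 3. The call of Slc46a3 ended without LIPUS 2 (adjusted p = 0.050).

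Slc44a1 (NM_001033852), the choline carrier that feeds membrane lipid synthesis, read 2.78, 2.91 and 2.89 in control and 3.49, 3.45 and 3.44 with LIPUS. The arrays of each group agreed closely. The change was 0.60 ± 0.15 (SE, adjusted p = 0.0444), and 0.57 against control 3. Its other kept probe, with another transcript accession, rose by 1.06 (limma adjusted p = 0.00379 with every kept probe tested). On the probe reported, the call ended without control 1, control 2 or any 1 LIPUS array (highest adjusted p = 0.15).

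The equilibrative nucleoside carriers did not pass. Slc29a2 read −1.18, −0.99 and 0.00 in control and 0.22, 0.51 and 0.10 with LIPUS, so that control 3 lay near the LIPUS arrays. Its change was 1.0 ± 0.29 (SE, adjusted p = 0.0732) over all arrays, and 0.27 against control 3. Slc29a1 changed by 0.61 ± 0.18 (SE, adjusted p = 0.0846), and Slc29a3 (−0.11) lay near 0. The thiamine carrier gene Slc19a2 was above background on 1 control and 2 LIPUS arrays and lay at 0.86 ± 0.25 (SE, adjusted p = 0.0805). The folate carrier genes Slc19a1 (−0.08) and Slc46a1 (0.51), the ascorbate carrier gene Slc23a2 (0.38) and Slc28a1 (0.19) did not pass.

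Mitochondrial carriers of family 25 move metabolites across the inner mitochondrial membrane. Limma called none of these 16 genes, against 6.63% of all features. In limma 1 was at an unadjusted p under 0.05, and the median change was 0.07. The groups did not overlap for 2 of the 16, against 27.2% of all features. The citrate carrier gene Slc25a1 read 1.06, 0.76 and 1.1 in control and 1.39, 1.4 and 1.58 with LIPUS, a change of 0.48 ± 0.17 (SE, adjusted p = 0.126). The dicarboxylate carrier gene Slc25a10 lay at 0.36 ± 0.17 (SE, adjusted p = 0.241). The phosphate carrier gene Slc25a3 was at the scanner limit on all 6 arrays, so its reading of 0.24 is set by the scaling. The ADP/ATP carrier genes Slc25a4 (0.03) and Slc25a5 (−0.16) lay near 0. The remaining 11 lay between −0.27 for Slc25a38 and 0.19 for Slc25a20, among them Slc25a11, Slc25a15, Slc25a21, Slc25a22, Slc25a25, Slc25a29, Slc25a39 and Slc25a51.

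Acid-base carriers exchange protons, bicarbonate and other anions. Limma called none of these 10 genes, against 6.63% of all features. In limma 2 were at an unadjusted p under 0.05, and the median change was 0.04. Slc9a2, a sodium-proton exchanger, passed the background limit on all 3 LIPUS arrays and no control array. It read −2.23, −2.3 and −2.4 in control and −1.93, −1.7 and −1.83 with LIPUS, a change of 0.49 ± 0.16 (SE, adjusted p = 0.10). It was kept through the LIPUS arrays alone and did not pass. The bound on the ratio of its group means was 1.22-fold, LIPUS over control, with no error attached. Slc4a2, the anion exchanger that osteoclasts use in acid secretion, lay at 0.61 ± 0.21 (SE, adjusted p = 0.121), and 0.35 against control 3. The sulfate carrier gene Slc26a2 (0.03), which cartilage needs for its proteoglycans, did not pass, and neither did Slc4a3 (−0.19), Slc4a4 (0.06), Slc4a7 (0.47), Slc9a5 (−0.10), Slc9a8 (0.20) and Slc26a1 (−0.27).

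Nucleotide sugar carriers load the Golgi and endoplasmic reticulum for glycosylation. Limma called none of these 7 genes, against 6.63% of all features. In limma 2 were at an unadjusted p under 0.05, and the median change was 0.20. Slc35b1, a nucleotide carrier of the endoplasmic reticulum, read 4.49, 4.63 and 4.66 in control and 5.08, 5.09 and 5.05 with LIPUS. The groups did not overlap, and the change was 0.48 ± 0.15 (SE, adjusted p = 0.0973). Slc33a1, which brings acetyl-CoA into the endoplasmic reticulum, lay at 0.41 ± 0.17 (SE, adjusted p = 0.193). Slc35a3 (0.22), Slc35a4 (0.17), Slc35b2 (−0.06), Slc35e4 (0.20) and Slc35f6, which read 0 to 2 decimals, did not pass.

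Carriers of neurotransmitters, osmolytes and organic ions held no call in limma among 23 genes, against 6.63% of all features. In limma 3 were at an unadjusted p under 0.05, and the median change was 0.02. The nearest was Slc47a1, an exporter of organic cations, which was above background on all 3 control arrays and no LIPUS array. It read −1.91, −1.47 and −1.76 in control and −2.32, −2.3 and −2.62 with LIPUS, a change of −0.70 ± 0.18 (SE, adjusted p = 0.0501). It was kept through the control arrays alone and did not pass. The bound on the ratio of its group means was 1.26-fold, control over LIPUS, with no error attached. Slc10a6, a carrier of sulfated steroids, read 0.86, 1.05 and 1.1 in control and 0.52, −0.29 and 0.32 with LIPUS, a change of −0.82 ± 0.22 (SE, adjusted p = 0.0581). Slc10a7, whose loss is known to disturb skeletal growth, lay at 0.50 ± 0.22 (SE, adjusted p = 0.219). The taurine carrier gene Slc6a6 (−0.37) and the creatine carrier gene Slc6a8 (−0.04) did not pass, and the other probe of Slc6a8 read 0.67. The urea carrier gene Slc14a1, above background on 1 control and 2 LIPUS arrays, changed by 0.39 over all arrays and by −0.64 against control 3. The other 17 lay between −0.29 for Slc6a9 and 0.26 for Slc22a4, among them Slc10a1, Slc10a3, Slc14a2, Slc17a5, Slc18a2, Slc22a12, Slc22a17, Slc22a18, Slc22a3, Slc32a1, Slc6a12, Slc6a13, Slc6a15 and Slc6a2. Slc49a4 (0.20) and Slc7a6os (−0.15), the latter named for the carrier gene Slc7a6 and no carrier itself, stand outside the groups.

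Sodium-driven carriers depend on the sodium pump, whose catalytic subunits are not among the genes given here. Its beta subunits and regulators were among the partner genes. Of 8 measured, 1 was called higher, 3 lower and 4 did not pass, where 6.63% of all features and 8.69% of those with a symbol were called. The median change was −0.16. The beta subunit genes Atp1b1, which read 4.84, 4.97 and 4.17 in control and 3.26, 3.16 and 3.55 in LIPUS, and Atp1b2, which read 0.12, 0.05 and −0.26 in control and −1.25, −1.27 and −1.3 in LIPUS, fell by 1.34 ± 0.23 and 1.24 ± 0.17 on the log2 scale (SE, adjusted p = 0.00883 and 0.00278). Beta subunits bring the pump to the cell surface. The third, Atp1b3, lay at 0.20 ± 0.16 (SE, adjusted p = 0.497).

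Among regulators of the pump, Fxyd2 read 4.9, 5.0 and 5.45 in control and 3.98, 3.86 and 4.03 in LIPUS and changed by −1.16 ± 0.19 (SE, adjusted p = 0.00646), a call that held with slide as a fixed block (adjusted p = 0.0268). Fxyd1 read 1.66, 1.71 and 1.45 in control and 2.42, 2.24 and 2.52 in LIPUS and changed by 0.79 ± 0.17 (SE, adjusted p = 0.0216). The call of Fxyd1 ended without control 1, LIPUS 1 or LIPUS 3 (highest adjusted p = 0.0882). With slide as a fixed block the adjusted p was 0.125 for Atp1b1, 0.0524 for Atp1b2 and 0.0795 for Fxyd1. The Fxyd5, Fxyd6 and Fxyd7 genes did not pass.

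**Figure D4:**
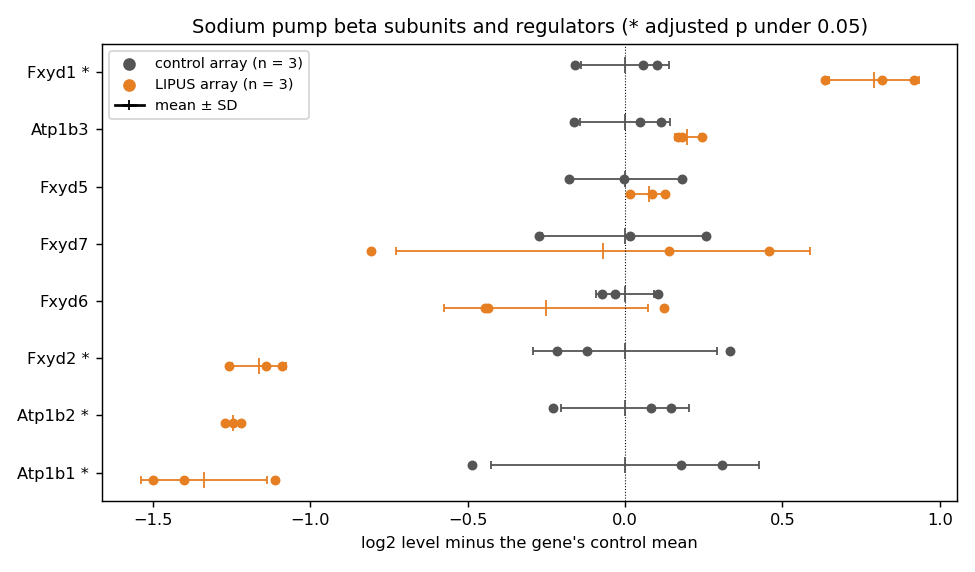
Log2 level of 8 measured beta subunits and regulators of the sodium pump on each array, minus the gene's control mean. Points are arrays, grey for control and orange for LIPUS, bars give the mean ± SD (n = 3 each), and an asterisk marks an adjusted p under 0.05. Fxyd1 lies to the right of its controls, and Fxyd2, Atp1b2 and Atp1b1 to the left.

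Of 21 measured transporters named outside the Slc scheme, 1 was called higher, 2 lower and 18 did not pass, against the called shares of 6.63% and 8.69%. Slco2b1, an importer of organic anions and steroid conjugates, read 1.47, 1.11 and 1.95 in control and −0.16, −0.31 and −0.18 in LIPUS and changed by −1.73 ± 0.22 (SE, adjusted p = 0.00209). Its relative Slco3a1 read 0.79, 0.86 and 0.53 in control and 1.97, 1.96 and 1.85 in LIPUS and changed by 1.2 ± 0.16 (SE, adjusted p = 0.00298). The pair thus moved in opposite directions, and both stayed called with slide as a fixed block (adjusted p = 0.0239 and 0.0313) and without any 1 array. The mitochondrial carrier gene Sfxn3 fell by 0.76 ± 0.17 on the log2 scale (SE, adjusted p = 0.0254), and its call ended without control 1, control 2 or any 1 LIPUS array (highest adjusted p = 0.103).

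Of 18 measured ATP-driven ABC transporters, 1 was called higher, 1 lower and 16 did not pass, against the same shares of 6.63% and 8.69%. Abca2, a lipid transporter of lysosomes, changed by −0.91 ± 0.16 (SE, adjusted p = 0.0106), and Abcc9, a regulatory subunit of potassium channels, by 0.86 ± 0.18 (SE, adjusted p = 0.0205). The call of Abcc9 ended without control 1, LIPUS 1 or LIPUS 2 (highest adjusted p = 0.0863). None of 11 measured chaperones and scaffolds of carriers was called in limma (2 at an unadjusted p under 0.05). With slide as a fixed block the adjusted p was 0.143 for Sfxn3, 0.118 for Abca2 and 0.141 for Abcc9.

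Markers of the cells in such cultures were read against the called shares of all features, 2.89% higher and 3.74% lower. Of 14 measured macrophage markers, 8 were called lower and none higher, with a mean log2 level of 4.06 to 4.08 on the control arrays and 2.97 to 3.22 on the LIPUS arrays. Of the 6 that did not pass, 4 were at the scanner limit on 3 or more arrays (Cd68, C1qa, C1qb and Lyz2), and no measured macrophage marker was below background. Of 4 measured endothelial markers, 3 were called lower, with means of 0.24 to 0.32 in control and −0.94 to −0.82 in LIPUS, while Pecam1, Cdh5, Tek and Vwf were not among those measured. Of 10 osteoblast markers, 5 were called higher and none lower, with means of 3.34 to 3.41 and 4.16 to 4.33. These means include clipped readings: Bglap and Spp1 were at the scanner limit on 6 arrays, and Mepe, called higher, on 3. Of 7 cell cycle markers 5 were called lower, and of 6 adipocyte markers 1 was called higher. Among the adipocyte markers, Cfd was at the scanner limit on 6 arrays and Fabp4 on 4. With slide as a fixed block, 6 of the 8 macrophage, 1 of the 3 endothelial and 3 of the 5 osteoblast calls held, and none of the cell cycle or adipocyte calls did in limma. In limma no call was made among 2 osteoclast, 2 erythroid, 5 mast cell and 2 B or T cell markers measured, and at an unadjusted p under 0.05 there was 1 mast cell and 1 B or T cell marker. The part of these cells in the changes of carriers such as Slc11a1 and Slc15a3 was not tested.

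Some genes lay close to the background limit, which left out 72 of the 203. The limit was passed on all 6 arrays by the reported probe of 103 of the 131 genes, and on exactly 3 arrays by the best probe of 11: Slc10a1, Slc14a1, Slc15a2, Slc19a2, Slc23a2, Slc47a1, Slc6a2, Slc7a2, Slc7a3l1, Slc9a2 and Slc9a8. Of these 11, 3 passed through 1 group alone, Slc15a2 and Slc47a1 in control and Slc9a2 in LIPUS, so their difference is tied to the rule. Just outside, 8 genes passed on 2 arrays, among them Slc13a1, Slc18a3, Slc22a25, Slc25a27, Slc25a30, Slc25a37 and Slc6a11. The changes outside ran from −0.18 for Slc13a1 to 0.43 for Slc25a37, and those inside from −1.39 for Slc15a2 to 0.86 for Slc19a2.

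A second check within the arrays came from genes with more than 1 kept probe. There were 27 of them, and for 10 another probe had the opposite sign, each of those 10 with a reported change between −0.32 and 0.14 and no call. Among the 19 called genes, Slc1a3, Slc16a6, Slc38a2 and Slc44a1 had a second kept probe, of the same sign in all 4 and called in all but Slc16a6. Calls counted over any kept probe numbered 20, the 19 and Slc12a2.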

How the data were processed

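RNA of 6 rat bone marrow cultures, 3 control and 3 LIPUS, was read on single-colour Agilent arrays. Spot intensity was deposited per array, without scaling between arrays per the file headers. The percent of saturated pixels and a position score for each spot come from the same deposited tables. The authors' value table holds log2 values relative to each array's 75th percentile, from its values. Scanner software is not given in the sources used here. Slide was inferred from spot positions.

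Spot medians were corrected with normexp (offset 50) in limma 3.58.1 (R 4.3.3), put on a log2 scale, averaged per probe and reduced by each array's 75th percentile. A probe was kept if its background-subtracted median passed the 95th percentile of 153 negative control spots on 3 or more arrays. The kept probe with the highest mean stood for a gene, and symbols came from RefSeq accessions. Groups were compared with lmFit and eBayes, with Benjamini-Hochberg adjustment over 21847 features. The number of arrays limits the precision. The fit was tested on simulated data. The alternatives covered background, scaling, filters, probes, the value table, variance trend, slide, replicate block and single arrays left out.

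Where a probe was not above background on any array of a group, the fold is a bound on the ratio of group means, with no error attached. It sets the bright group's mean against the mean, per array of the dim group, of the higher of its own signal and the lowest signal above background.

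Named genes were the called carriers, the 2 with the smallest p of the others in each group of 3 or more, those above background in only 1 group, and called partners. Members of a group beyond these are given by value. A few genes are not reported here by name, and those of the partner list were left out of its counts. The members and lists were chosen with earlier results of these data known.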

Additional observations from a re-analysis of the deposited data

How the results depend on the processing

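Over all features, 1449 calls became 700 with plain background subtraction, 3719 with spike-in scaling, 655 without a filter, 805 in the authors' value table, 2360 with an intensity trend and 282 with slide as a fixed block. The 5 higher carrier calls became 2 with offset 16, 1 with plain subtraction, 2 with median centring, 2 with spike-in scaling, 1 without a filter, 8 above background on all 6 arrays, 2 in the value table, 10 with a trend, 1 with slide as a fixed and 3 as a random block. The 14 lower calls became 25 with spike-in scaling, 9 without a filter, 6 in the value table and 1 with slide as a fixed block. Within the slide with both groups, which has 1 control, limma called 0 of all features and 0 higher and 0 lower carriers, with 3339 features and 23 carriers at an unadjusted p under 0.05. The carrier median became −0.33 with spike-in scaling. Without 1 array, calls ran from 642 to 2168 over all features, from 1 to 9 for higher and from 8 to 12 for lower carriers. The highest of each came without control 3, where group and slide coincide. Slc12a8 reversed in the value table, at −0.34 (adjusted p = 0.745). The causes were not tested.

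Among values of the named genes under alternatives, 798 kept direction and side of the threshold, 178 lost and 22 gained a call, and 1 reversed. Uncalled genes that stayed uncalled are in the 798, and only called genes could lose a call. Slc38a2 kept its call in 5 settings and lost it in 16. Slc36a2, Slc44a1 and Slc16a6 each kept theirs in 6 and lost it in 15. Slc12a4 and Slc2a5 each kept theirs in 20 and lost it in 1. With the replicate block, limma called 1175 features and 3 higher and 11 lower carriers, 13 of the 19 kept. Deviations of same-numbered arrays from their group means correlated at 0.00107, 0.00948 and −0.0124. With 3 arrays per group, such values cannot tell whether same-numbered samples shared a culture or animal. The count of genes whose groups do not overlap has no value under the trend and block settings. Probes at the scanner limit and probes near background bound what can be seen.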
